A study of Mus musculus with 17 samples.

Results

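The apolipoprotein genes were followed in RNA sequencing of mouse kidney cortex, out of 48795 genes in the deposited table. They were chosen by name, with earlier results of these data known, and the study had already reported changed apolipoproteins in the ATF4 KO cortex. The 10 members are Apoe, Apob, Apoh, Apoa1, Apoa2, Apoa4, Apoc1, Apom, Apoo and Apool. There were 5 WT samples (genotype wild type), 5 GCERAd samples (ATF4 KO), 3 TRACK samples (TRACK) and 4 GCERAdT samples (TRACK-ATF4 KO). In GCERAd mice, which carry Ggt/CreER and Atf4 fl/fl, tamoxifen-activated Cre driven by part of the Ggt1 promoter deletes Atf4, the gene of a stress-response transcription factor, in proximal tubules, while the other cells of the cortex keep it. Tamoxifen was given at 6 weeks of age on 2 days, and tissue was taken 1 month later after a fast of 16 h. TRACK is a transgenic mouse model of kidney cancer, in which a constitutively active HIF1α is made in proximal tubules. The ages and treatments of the TRACK and GCERAdT mice, the alleles of the GCERAdT mice, and any tamoxifen in WT mice were not given in the sources used here. The comparisons ask how the members' mRNAs differ with the ATF4 KO label, with and without the TRACK transgene, and with the transgene itself.

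Apolipoproteins are the protein part of the particles that carry lipids in blood. Apob is the structural protein of chylomicrons and of very low density and low density lipoproteins, Apoa1 and Apoa2 are the main proteins of high density lipoprotein, and Apoe is a ligand by which cells take up remnant particles. Liver and intestine make most of them, while proximal tubule cells take up filtered lipoproteins through megalin (Lrp2) and cubilin (Cubn), and kidney also makes Apoe and Apom. Apoo and Apool belong here by name, but their proteins sit in the inner mitochondrial membrane, in the MICOS complex that holds the cristae.

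Apoe, Apoa4 and Apob are on different chromosomes, and their upstream sequences are shown because their levels differed between groups in different ways: Apoe was high in WT, Apoa4 high with TRACK and Apob low in WT. The 250 bases before the start of each are shown from RefSeq (GRCm38.p6), 5′ to 3′ on the gene's own strand, in lower case with any match in capitals. The windows are chr7:19699189-19699438 (minus strand) for Apoe, chr9:46240594-46240843 (plus strand) for Apoa4 and chr12:7977427-7977676 (plus strand) for Apob.
Apoe: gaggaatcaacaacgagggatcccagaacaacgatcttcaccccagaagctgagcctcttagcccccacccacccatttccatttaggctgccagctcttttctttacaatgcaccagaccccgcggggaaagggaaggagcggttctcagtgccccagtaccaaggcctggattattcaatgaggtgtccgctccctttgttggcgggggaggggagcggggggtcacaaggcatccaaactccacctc
Apoa4: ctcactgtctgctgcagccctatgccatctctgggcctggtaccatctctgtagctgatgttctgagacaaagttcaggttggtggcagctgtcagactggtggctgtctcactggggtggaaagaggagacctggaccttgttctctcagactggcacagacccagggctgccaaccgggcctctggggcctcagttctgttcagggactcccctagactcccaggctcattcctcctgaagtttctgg
Apob: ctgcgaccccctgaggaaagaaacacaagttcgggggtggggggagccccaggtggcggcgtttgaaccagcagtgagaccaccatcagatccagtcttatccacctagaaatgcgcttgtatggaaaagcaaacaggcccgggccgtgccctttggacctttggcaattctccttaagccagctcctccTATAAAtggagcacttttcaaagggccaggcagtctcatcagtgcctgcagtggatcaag
The letters searched, on both strands, were the hypoxia response cores ACGTG and GCGTG, the ATF4-type element TGATGNAA, the HNF4-type element CAAAGTCCA, CCAAT and TATAAA. Apob held TATAAA, 60 bases before its start, as did 12.4% of 32851 promoters. Neither hypoxia core was found in these 3 windows, and ACGTG was in 16.6% and GCGTG in 28.2% of all promoters. TGATGNAA was in 3.45% of promoters and in none of the 9 members matched, CAAAGTCCA in 0.384% and in none. A missing match says only that those letters are not in this window. RefSeq's start lies inside the gene model of GENCODE M21 by 148 bases for Apoa4 and by 29 bases for Apob, and the distance of TATAAA is counted from the RefSeq start.

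Levels are given as CPM, a gene's counts scaled to a common library total over all 17 samples, and differences as log2 fold changes with their standard error (SE). A change was called where the adjusted p did not exceed 0.05 (quasi-likelihood test of edgeR, Benjamini-Hochberg over all genes tested). Totals on genes were 53688512 to 71364561 counts per sample, so 1 CPM stands for over 50 counts. Replicates are separate samples by their labels, and the protocol gives 3 to 4 mice per cohort while WT and GCERAd hold 5 samples each, so p-values measure the spread between these samples. In these whole-cortex libraries, fewer cells of a type and less RNA per cell cannot be told apart. Atf4 was 84.5 ± 9.81 CPM (SD, n = 5) in WT, 65.4 ± 9.30 (n = 5) in GCERAd, 83.6 ± 8.93 (n = 3) in TRACK and 92.4 ± 10.0 (n = 4) in GCERAdT. It was lower in GCERAd than in WT (log2 fold change -0.38, SE 0.11, adjusted p = 0.0193, edgeR), and without WT 5 it was -0.31 (adjusted p = 0.0518, edgeR). In GCERAdT over TRACK its log2 fold change was 0.17 (SE 0.10, adjusted p = 0.352, edgeR), so the lower Atf4 that the label would give was not seen in the libraries labelled GCERAdT, in a tissue where cells outside the proximal tubule also count. The 5 WT libraries held Xist at 149 to 418 CPM and no counts on Ddx3y, Eif2s3y and Uty, while the other 12 held those Y-linked genes at 116 to 154 CPM in sum and Xist at 0 to 6.07 CPM. Sex and genotype cannot be told apart in any comparison with WT. Libraries also fell into 2 kinds by the share of counts on processed pseudogenes, 0.032 to 0.038% (kind A: WT 1, 3, 4 and 5, GCERAd 1 and 2, GCERAdT 1 and 2) or 0.0574 to 0.0784% (kind B: all others, with every TRACK library among them).

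In the libraries labelled GCERAdT, Apoa1 and Apoa2 were lower and Apob was higher than in TRACK, and the other 7 members did not pass the test. Those 3 calls of 10 members stand beside 7.61% of the 11928 genes tested (3.14% higher, 4.48% lower). All TRACK libraries are of kind B, and the calls depended on the fit. With a term for library kind 0 members were called (4.17% of genes), with 5 at an unadjusted p under 0.05 (edgeR). With the replicate number as a block 1 was called (7.49% of genes). The median log2 fold change was -0.05 over the members and 0.01 over all genes tested. The samples of the 2 groups did not overlap for Apob, Apoa1, Apoa2 and Apoc1, 4 of the 10 members, beside 22.9% of the genes tested.

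**Figure D1:**
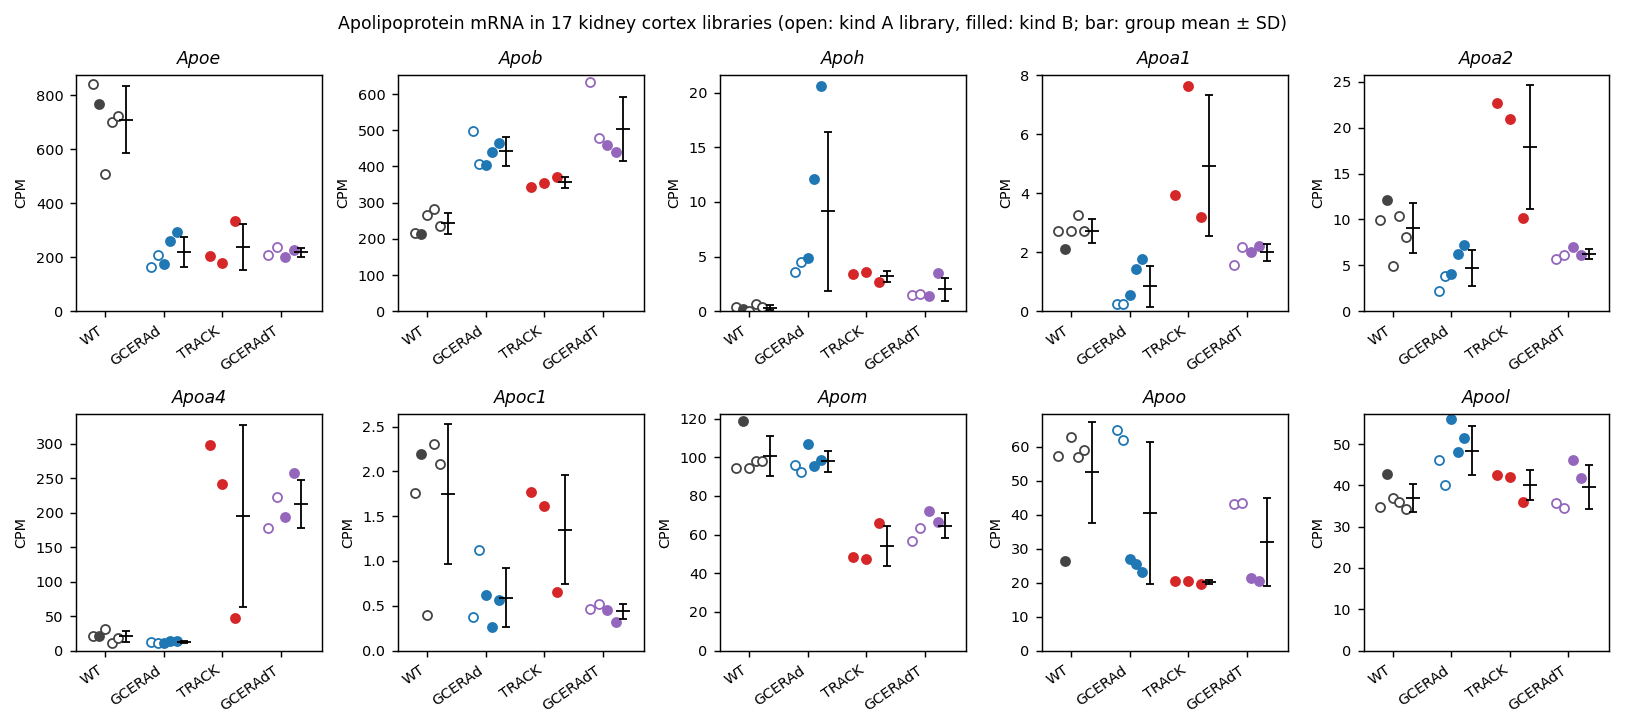
CPM of each of the 10 members in all 17 samples, by group. Each point is 1 sample, open for kind A and filled for kind B libraries, and the black bar is the group mean ± SD. Apoe is at 509 CPM or more in WT alone, Apoa4 is at 178 CPM or more in all GCERAdT and in 2 TRACK samples, and Apoo follows the library kind.

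Apoe, the remnant ligand (ENSMUSG00000002985, chromosome 7, 19696109 to 19699188, minus strand), was the most abundant member in WT and stood lower in all other libraries. Positions of genes here are those of GENCODE M21 on GRCm38. Apoe was 842, 767, 509, 702 and 724 CPM in WT 1 to 5 and 164, 207, 176, 262 and 295 CPM in GCERAd 1 to 5. It was 204, 177 and 334 CPM in TRACK and 207, 239, 201 and 225 CPM in GCERAdT. Every WT sample was above all 12 others, which ran from 164 to 334 CPM, and those 3 groups overlapped. Apoe was lower in GCERAd than in WT (log2 fold change -1.70, SE 0.18, adjusted p = 3.84e-05, edgeR), or 3.24-fold, and in TRACK than in WT (-1.58, SE 0.24, adjusted p = 8.55e-04, edgeR). It did not pass the test between GCERAdT and TRACK (-0.11, SE 0.20, adjusted p = 0.776, edgeR) or between GCERAdT and GCERAd (0.00, SE 0.16, adjusted p = 1.00, edgeR). Without TRACK 3, the highest of its group, the first of these was 0.23 (adjusted p = 0.228, edgeR). The ATF4 KO contrast differed between the settings without and with TRACK by 1.59 (SE 0.29, adjusted p = 9.83e-04, edgeR). WT was the group of libraries with Xist and without Y-linked counts, so this drop cannot be told apart from sex.

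Measured per length as FPKM, which allows genes to be compared, Apoe made up 54.0 to 66.4% of the members' summed level in WT and 22.6 to 48.2% in the other libraries. The summed level of the 10 members was 440.3 to 593 FPKM in WT, 272 to 338 in GCERAd, 323 to 411 in TRACK and 351 to 391 in GCERAdT. The most abundant member was Apoe in all WT libraries, in GCERAd 2, 4 and 5 and in TRACK 3. It was Apoa4 in TRACK 1 and 2 and in all 4 GCERAdT libraries, and Apom in GCERAd 1 and 3.

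Apoc1, which lies 3448 bases from Apoe on chromosome 7 and whose protein inhibits lipoprotein uptake, was scarce (ENSMUSG00000040564, chromosome 7, 19689481 to 19692660, minus strand). It was 1.76, 2.19, 0.394, 2.31 and 2.08 CPM in WT and 0.373, 1.12, 0.624, 0.263 and 0.564 CPM in GCERAd. It was 1.77, 1.62 and 0.651 CPM in TRACK and 0.458, 0.516, 0.458 and 0.314 CPM in GCERAdT. All GCERAdT values were below all TRACK values, though only just below TRACK 3. Its log2 fold change was -1.59 in GCERAdT over TRACK (SE 0.49, adjusted p = 0.0765, edgeR), and it passed without TRACK 3 (-1.92, adjusted p = 0.0453, edgeR). It was called lower in GCERAd over WT (-1.57, SE 0.49, adjusted p = 0.0311, edgeR), a call lost in 8 of the 10 fits that left out a sample (adjusted p up to 0.0708). Apoc1 reached the mean of 1 FPKM needed for testing only through WT there, and only through TRACK in GCERAdT over TRACK.

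Apob, the backbone of the large lipid-carrying particles, went the other way from Apoe (ENSMUSG00000020609, chromosome 12, 7977648 to 8016835, plus strand). It was 217, 213, 266, 282 and 235 CPM in WT and 497, 406, 403, 439 and 466 CPM in GCERAd. It was 343, 355 and 372 CPM in TRACK and 633, 480.0, 459 and 440.0 CPM in GCERAdT. WT lay below all other libraries, TRACK below both ATF4 KO groups, and those 2 groups overlapped. Apob was 1.81-fold higher in GCERAd than in WT (log2 fold change 0.86, SE 0.10, adjusted p = 6.62e-05, edgeR) and 1.47-fold higher in TRACK than in WT (0.55, SE 0.10, adjusted p = 0.00106, edgeR).
In GCERAdT it was 1.43-fold higher than in TRACK (0.52, SE 0.13, adjusted p = 0.0373, edgeR). The highest value was GCERAdT 1, a kind A library, while TRACK held kind B libraries alone. With a term for library kind the change was 0.35 (adjusted p = 0.158, edgeR), and the kind B libraries on their own gave 0.35 (adjusted p = 0.138, edgeR). The call was also lost without each of TRACK 1, TRACK 2, TRACK 3, GCERAdT 2 and GCERAdT 3, with values of 0.48 to 0.56 and adjusted p up to 0.133.

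**Figure D2:**
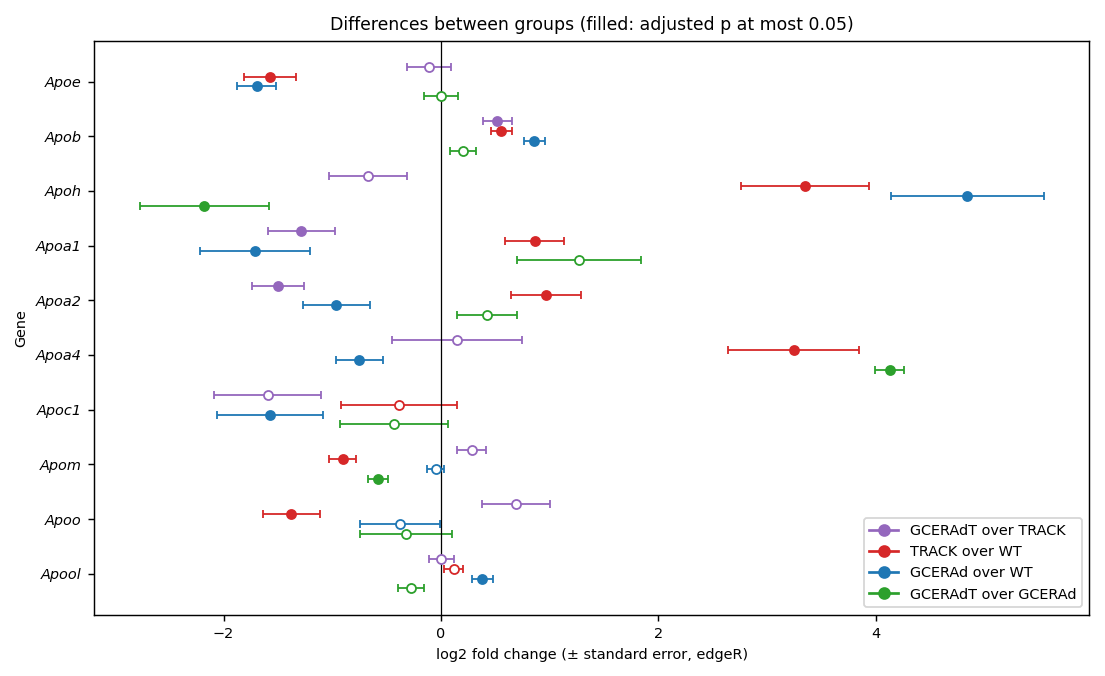
Log2 fold changes of the 10 members in 4 comparisons, with the standard error as bars. Filled points passed the test (edgeR). Apoh and Apoa4 lie farthest from 0, Apoe lies left of 0 in both comparisons with WT, and comparisons that share a group are not independent.

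Apoh, a phospholipid-binding plasma protein also called beta-2-glycoprotein I, was nearly absent from WT (ENSMUSG00000000049, chromosome 11, 108343354 to 108414396, plus strand). It was 0.343, 0.170, 0.0359, 0.646 and 0.363 CPM there and 3.57, 4.46, 4.85, 12.1 and 20.6 CPM in GCERAd. It was 3.36, 3.62 and 2.64 CPM in TRACK and 1.52, 1.55, 1.37 and 3.52 CPM in GCERAdT. WT, with 2 to 35 counts per library, lay below all other libraries, and GCERAd 4 and 5 were well above the rest. Apoh was higher in GCERAd than in WT (log2 fold change 4.84, SE 0.71, adjusted p = 7.74e-04, edgeR) and in TRACK than in WT (3.35, SE 0.58, adjusted p = 0.00101, edgeR). A mean of 1 FPKM in either group was needed for testing, and Apoh reached it only through the higher group in both. Its mean was 0.196 FPKM in WT, 5.72 in GCERAd and 2.01 in TRACK. It was lower in GCERAdT than in GCERAd (-2.18, SE 0.60, adjusted p = 0.0334, edgeR), a call that ended without GCERAd 4, GCERAdT 1, GCERAdT 2 or GCERAdT 3 (adjusted p up to 0.0972). In GCERAdT over TRACK it was -0.67 (SE 0.36, adjusted p = 0.275, edgeR), and -1.08 (adjusted p = 0.0397, edgeR) without GCERAdT 4. The ATF4 KO contrast with TRACK differed from that without it by -5.51 (SE 0.86, adjusted p = 3.20e-04, edgeR).

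Because liver makes much Apoh, the hepatocyte list of 16 markers is given beside it. Its summed level was 276 to 386 CPM in WT, 1350 to 2701 in GCERAd, 1228 to 1426 in TRACK and 808 to 1342 in GCERAdT, and GCERAd 4, GCERAd 5 and GCERAdT 4 were the highest of their groups in both. The most abundant of the 16 was Cyp2e1, which kidney also makes, at 133 to 251 CPM in WT, 1258 to 2487 in GCERAd, 636 to 739 in TRACK and 357 to 797 in GCERAdT. Of the 16 markers 9 were tested in GCERAd over WT, where 2 rose and 2 fell. In TRACK over WT 6 of 10 tested rose and 0 fell by edgeR or DESeq2 (0 at an unadjusted p under 0.05, edgeR). In GCERAdT over TRACK 3 of 9 tested fell and 0 rose by edgeR or DESeq2 (0 at an unadjusted p under 0.05, edgeR). Apoc3, described beside Apoa4, is among the 16. Albumin (Alb) was at 11.6 to 44.2 CPM in WT, 5.59 to 11.7 in GCERAd, 7.58 to 30.0 in TRACK and 5.10 to 8.62 in GCERAdT, so it was not raised in TRACK over WT. Ahsg, Cps1, Tat and Hpx were each at most 2.198 CPM in every group. Other markers of the list stood higher in TRACK. Ttr was at 27.5 to 60.9 CPM in WT, 39.6 to 48.5 in GCERAd, 111 to 190.5 in TRACK and 59.2 to 93.8 in GCERAdT. Fga was at 27.4 to 39.1, 11.8 to 79.7, 48.6 to 159.5 and 54.3 to 82.4 CPM in the same order. The calls of the list had the direction of Apoh, Apoa1, Apoa2 and Apoa4 in TRACK over WT and of Apoa1 and Apoa2 in GCERAdT over TRACK, and its part in these values was not tested. The annotated exons of Apoh share 30 bases with Prkca on the other strand, and the strand setting of the counting was not given.

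Apoa1 and Apoa2, the proteins of high density lipoprotein, were highest in TRACK and lower in GCERAdT. Apoa1 (ENSMUSG00000032083, chromosome 9, 46228580 to 46230466, plus strand) was 2.71, 2.13, 2.72, 3.27 and 2.70 CPM in WT and 0.248, 0.231, 0.537, 1.42 and 1.76 CPM in GCERAd. It was 3.96, 7.65 and 3.19 CPM in TRACK and 1.59, 2.18, 1.99 and 2.21 CPM in GCERAdT. Each GCERAd value was below each WT value and each GCERAdT value below each TRACK value. In GCERAd over WT Apoa1 reached the mean of 1 FPKM needed for testing only through WT (2.19 FPKM, with 0.680 in GCERAd). Apoa1 was 2.44-fold lower in GCERAdT than in TRACK (log2 fold change -1.28, SE 0.31, adjusted p = 0.0313, edgeR) and 3.27-fold lower in GCERAd than in WT (-1.71, SE 0.51, adjusted p = 0.0252, edgeR). Those contrasts share no sample, and their difference was 0.43 (SE 0.68, adjusted p = 0.676, edgeR). That error is too wide to tell whether they are alike, and the contrast with WT cannot be told apart from sex. The first call was lost without TRACK 1, TRACK 2, GCERAdT 1, GCERAdT 2 or GCERAdT 3 (log2 fold change -1.43 to -0.82, adjusted p up to 0.204), and the other without WT 1, WT 4 or GCERAd 3 (adjusted p up to 0.0606). The first was also lost in the fit of all 17 samples (-1.29, adjusted p = 0.142, edgeR), with the kind term (-1.21, adjusted p = 0.120, edgeR) and in kind B libraries alone (adjusted p = 0.175, edgeR). In TRACK over WT Apoa1 was higher by 0.86 (SE 0.27, adjusted p = 0.0241, edgeR), and without TRACK 2 by 0.39 (adjusted p = 0.229, edgeR). With the kind term it was 1.21 (adjusted p = 0.0911, edgeR).

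Apoa2 (ENSMUSG00000005681, chromosome 1, 171225054 to 171226379, plus strand) was 9.94, 12.1, 4.91, 10.4 and 8.13 CPM in WT and 2.25, 3.85, 4.06, 6.19 and 7.26 CPM in GCERAd. It was 22.6, 20.9 and 10.2 CPM in TRACK and 5.66, 6.16, 7.01 and 6.12 CPM in GCERAdT. TRACK 3 had less than both other TRACK samples but more than every GCERAdT sample. Apoa2 was 2.82-fold lower in GCERAdT than in TRACK (log2 fold change -1.50, SE 0.24, adjusted p = 0.00689, edgeR), and it passed in all 7 fits without 1 of the samples. With the library kind term it was -1.42 (adjusted p = 0.0561, edgeR), and in kind B libraries alone -1.43 (adjusted p = 0.124, edgeR). It was lower in GCERAd than in WT (-0.96, SE 0.31, adjusted p = 0.0380, edgeR) and higher in TRACK than in WT (0.97, SE 0.32, adjusted p = 0.0371, edgeR). The former call was lost in 7 of 10 fits without a sample (adjusted p up to 0.0839) and the latter in 5 of 8 (adjusted p up to 0.136). With the library kind term the latter was 0.56 (adjusted p = 0.490, edgeR).

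Apoa4, a protein of intestinal chylomicrons and high density lipoprotein, was high in TRACK and GCERAdT libraries and low in WT and GCERAd (ENSMUSG00000032080, chromosome 9, 46240696 to 46243459, plus strand). It was 21.0, 21.4, 31.8, 11.1 and 17.7 CPM in WT and 11.9, 11.2, 10.5, 14.3 and 13.6 CPM in GCERAd. It was 299, 241 and 46.7 CPM in TRACK and 178, 223, 193 and 258 CPM in GCERAdT. TRACK 3 lay far below the other TRACK samples and still above all WT and GCERAd samples. Apoa4 was 17.5-fold higher in GCERAdT than in GCERAd (log2 fold change 4.13, SE 0.13, adjusted p = 1.08e-08, edgeR) and 9.47-fold higher in TRACK than in WT (3.24, SE 0.60, adjusted p = 0.00539, edgeR). With the kind term, where WT 2 is the lone kind B library of WT, the latter was 3.18 (adjusted p = 0.133, edgeR). It did not pass the test between GCERAdT and TRACK (0.15, SE 0.60, adjusted p = 0.906, edgeR), where leaving out TRACK 3 gave -0.32 (adjusted p = 0.223, edgeR). In GCERAd over WT it was called lower (-0.75, SE 0.22, adjusted p = 0.0239, edgeR), although the groups overlapped and the call was lost without WT 1, GCERAd 2 or GCERAd 3 (adjusted p up to 0.0585). Apoa4 shares 632 exon bases with Gm10680 on the other strand, which had at most 0.40 CPM.

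Apoc3, an inhibitor of triglyceride clearance, lies between Apoa1 and Apoa4 on chromosome 9 (46232933 to 46235636, GRCm38), 5059 bases from Apoa4. It is no member, but like Apoa4 it was higher in every TRACK and GCERAdT sample than in any WT or GCERAd sample. It was 387, 327 and 85.3 CPM in TRACK and 183, 238, 290.1 and 312 CPM in GCERAdT, against 11.4 to 26.3 CPM in WT and 5.70 to 19.5 CPM in GCERAd. TRACK 3 was again the lowest of its group, while the order of the samples within GCERAd and GCERAdT was not that of Apoa4. The ratio of Apoc3 to Apoa4 CPM stayed between 0.543 and 1.83 over the 17 samples, while each gene spanned far more. Apoc3 was higher in TRACK than in WT (log2 fold change 3.68, SE 0.51, adjusted p = 0.00137, edgeR, and 3.38 with adjusted p = 0.0720 under the kind term) and in GCERAdT than in GCERAd (4.49, SE 0.45, adjusted p = 3.51e-04, edgeR). In GCERAdT over TRACK it was -0.03 (SE 0.52, adjusted p = 0.977, edgeR). Apoa1, 2466 bases on the other side of Apoc3, stayed below 8 CPM in every sample.

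**Figure D3:**
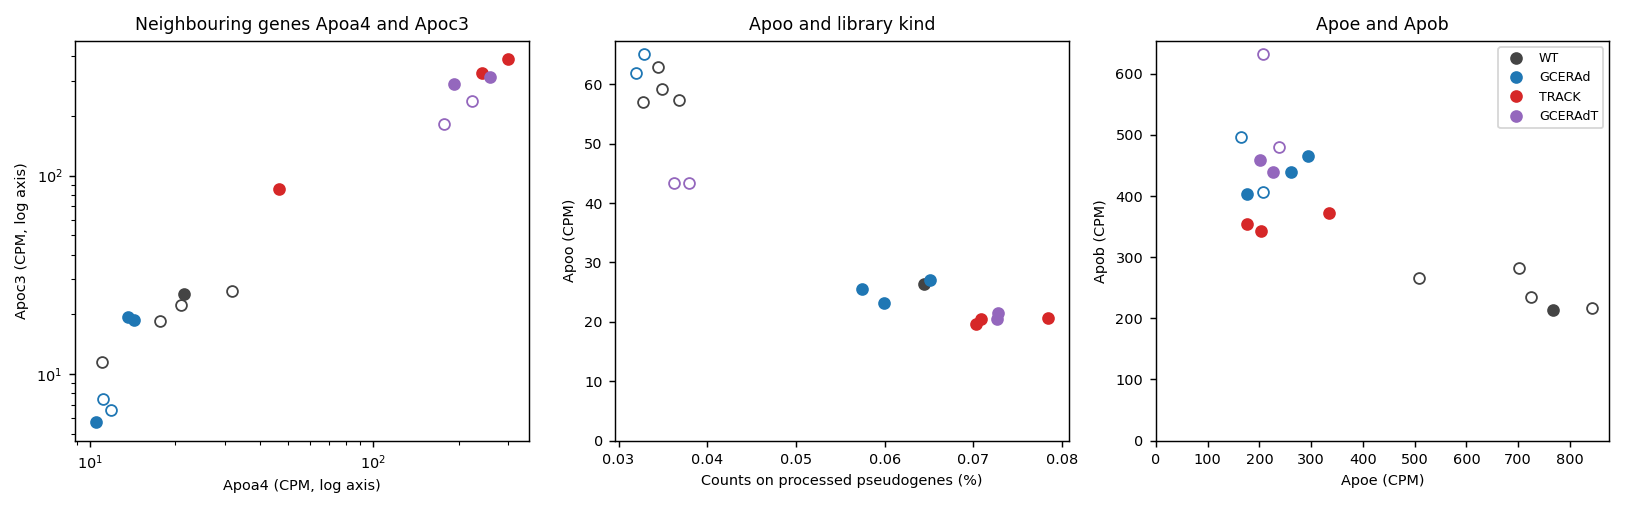
Left, Apoc3 against Apoa4 CPM on log axes; middle, Apoo CPM against the percent of counts on processed pseudogenes; right, Apob against Apoe CPM. Each point is 1 of 17 samples, coloured by group as in the right panel and open for kind A libraries. TRACK 3, at 46.7 CPM of Apoa4, lies between the low groups and the other TRACK and GCERAdT samples, Apoo is at 27.1 CPM or less in all kind B libraries, and WT stands apart in the right panel.

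Apom, which carries sphingosine-1-phosphate on high density lipoprotein and is made in proximal tubules, was lower with TRACK (ENSMUSG00000024391, chromosome 17, 35128997 to 35132050, minus strand). It was 94.7, 119, 94.4, 97.9 and 97.9 CPM in WT and 96.1, 92.5, 107, 95.2 and 98.4 CPM in GCERAd. It was 48.4, 47.3 and 65.8 CPM in TRACK and 56.6, 63.4, 72.0 and 66.6 CPM in GCERAdT. All 7 samples with the transgene lay below all 10 without it. Apom was 1.87-fold lower in TRACK than in WT (log2 fold change -0.91, SE 0.13, adjusted p = 2.48e-04, edgeR) and lower in GCERAdT than in GCERAd (-0.58, SE 0.09, adjusted p = 0.00144, edgeR), and both passed in every fit without 1 sample. GCERAd over WT gave -0.05 (SE 0.08, adjusted p = 0.678, edgeR). GCERAdT over TRACK gave 0.28 (SE 0.13, adjusted p = 0.215, edgeR), and 0.46 (adjusted p = 0.0384, edgeR) without TRACK 3. The summed level of 11 markers of proximal tubule was also lower with TRACK. It was 12170 to 14250 CPM in WT and 10270 to 11890 in TRACK (2 higher, 5 lower), and 15760 to 17560 in GCERAd and 9605 to 11090 in GCERAdT (0 higher, 6 lower). From WT to TRACK the markers went both ways. Slc34a1, which weighs heavily in the sum, was at 2707 to 3418 CPM in WT and 824 to 1189 in TRACK, while Slc4a4 was at 1154 to 1410 and 1729 to 1892. Their part in the Apom values was not tested.

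Apoo and Apool, the MICOS members, are both on the X chromosome. Apoo (ENSMUSG00000079508, X, 94367117 to 94417093, plus strand) was 57.4, 26.3, 62.8, 57.0 and 59.2 CPM in WT and 65.0, 61.9, 27.1, 25.5 and 23.2 CPM in GCERAd. It was 20.6, 20.5 and 19.7 CPM in TRACK and 43.3, 43.4, 21.4 and 20.4 CPM in GCERAdT. The values fell into the library kinds within each group, with 43.3 to 65.0 CPM in the 8 kind A and 19.7 to 27.1 CPM in the 9 kind B libraries. Its processed pseudogene Apoo-ps went the opposite way, at 0.103 to 0.641 CPM in kind A and 2.14 to 5.51 CPM in kind B. In a fit of all 17 samples with group and kind, kind B over kind A was -1.19 on the log2 scale for Apoo (adjusted p = 3.98e-20, edgeR), where 8.51% of 28116 genes were called. Apool was the 1 other member called for kind (0.29, adjusted p = 0.00318, edgeR). The call of Apoo in TRACK over WT (-1.38, SE 0.26, adjusted p = 0.00352, edgeR) moved to -0.39 with the kind term (adjusted p = 0.0156, edgeR) and to -0.38 in kind B libraries alone (adjusted p = 0.0847, edgeR), and GCERAdT over TRACK moved from 0.69 (adjusted p = 0.228, edgeR) to 0.07 with the term.

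Apool (ENSMUSG00000025525, X, 112311334 to 112372755, plus strand) varied less. It was 34.3 to 42.8 CPM in WT with a median of 36.0, 40.0 to 56.2 in GCERAd with a median of 48.2, 35.9 to 42.4 in TRACK and 34.6 to 46.0 in GCERAdT. All pairs of groups overlapped. It was called in GCERAd over WT alone among the main comparisons (log2 fold change 0.38, SE 0.10, adjusted p = 0.0113, edgeR). GCERAdT over TRACK gave 0.00 (SE 0.12, adjusted p = 0.992, edgeR). Of 13 genes of the MICOS list, 0 passed in GCERAdT over TRACK by edgeR and 1 by DESeq2, with 3 at an unadjusted p under 0.05 (edgeR), and in TRACK over WT 1 rose and 2 fell, where Immt, the core subunit, was at -0.11 (adjusted p = 0.219, edgeR).

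Beside the background, the counts of members called were 8 of 10 in TRACK over WT (5 higher, 3 lower) where 45.5% of 11967 genes were called, 23.0% higher and 22.5% lower. They were 8 of 10 in GCERAd over WT (3 higher, 5 lower) where 27.5% of 11581 were called, 14.0% higher and 13.4% lower. With 3 to 4 mice per cohort and 5 libraries, a mouse may have given more than 1 library, which the labels do not settle. The main tests with WT or GCERAd count each library as a separate replicate, so any such repeats would make their p-values too small. The study's supplement lists some libraries under names that differ only by an added letter, and it does not match those names to these titles. When WT 1 was summed with WT 2 and GCERAd 2 with GCERAd 3, each a kind A with a kind B library, Apoe, Apob, Apoh and Apool passed in GCERAd over WT. Apoa1, Apoa2, Apoa4 and Apoc1 did not (adjusted p 0.0562 to 0.136, edgeR). With group means and library kind removed, the correlation over 9130 genes was -0.141 for the WT pair and 0.528 for the GCERAd pair. Over all pairs within a group it ran from -0.851 to 0.645, and only GCERAd 4 with GCERAd 5 was above the GCERAd pair. Removing group means lowers such correlations, and WT 2 is the only kind B library of WT. These values therefore do not settle whether the pairs are repeat libraries. In GCERAdT over GCERAd 3 members were called, 1 higher and 2 lower, where 19.1% of 11816 were called, 9.34% higher and 9.8% lower, and Apoc1 fell below the minimum level. Samples of the 2 groups did not overlap for 6 members in TRACK over WT (44.3% of the genes tested), 4 in GCERAd over WT (20%) and 3 in GCERAdT over GCERAd (19.5%). In GCERAdT over GCERAd the samples with the same number come from the same library kind and deviated together, and with the replicate number as a block 7 members were called. The block added Apoa1 (2.03, adjusted p = 0.0140, edgeR), Apoa2 (0.70, adjusted p = 0.0424, edgeR), Apoo (-0.43, adjusted p = 0.00477, edgeR) and Apool (-0.25, adjusted p = 0.0173, edgeR). It also raised the genes called in all from 2262 to 3789. For the difference between the ATF4 KO contrasts with and without TRACK, Apoe and Apoh were called, 2 of 10 members, where 24.9% of 12208 genes were (12.2% higher, 12.7% lower).

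Genes that handle lipoproteins are given by list, beside the 7.61% of all genes tested that were called in GCERAdT over TRACK. Of the receptors, 0 of 17 tested rose by edgeR or DESeq2 (2 at an unadjusted p under 0.05, edgeR), and 1 fell by edgeR. That was Scarb1, the high density lipoprotein receptor, at 31.7, 30.2 and 31.7 CPM in TRACK and 23.1, 23.1, 20.6 and 20.2 CPM in GCERAdT (log2 fold change -0.50, SE 0.09, adjusted p = 0.00998, edgeR). Every GCERAdT value was below every TRACK value, and Scarb1 was higher in TRACK than in WT by 0.94 (adjusted p = 2.22e-05, edgeR). In TRACK over WT 6 of 18 receptors rose and 5 fell, among them Lrp2 (-0.71, adjusted p = 0.00205, edgeR). With the kind term Lrp2 was at -0.37 (adjusted p = 0.145, edgeR). Of the 24 genes of assembly and remodelling, 1 rose and 4 fell in GCERAdT over TRACK, and 10 rose and 4 fell in TRACK over WT, where 45.5% of all genes tested were called. In GCERAdT over TRACK the median log2 fold change was -0.01 over the receptors and -0.11 over assembly and remodelling, beside 0.01 over all genes tested.

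Among the genes of assembly and remodelling that fell in GCERAdT over TRACK, Angptl4, an inhibitor of lipoprotein lipase, fell by 0.65 (adjusted p = 0.00936, edgeR) after 2.35 in TRACK over WT (adjusted p = 1.13e-04, edgeR). The phospholipid transfer protein Pltp fell by 0.75 (adjusted p = 0.0135, edgeR) and the sterol exporter Abcg1 by 0.96 (adjusted p = 0.00863, edgeR). In the fit of all 17 samples Angptl4 kept its value with an adjusted p of 0.489 (edgeR), and in kind B libraries alone it was at -0.62 (adjusted p = 0.0947, edgeR). With the kind term Pltp was at -0.58 (adjusted p = 0.0672, edgeR) and Abcg1 at -0.87 (adjusted p = 0.0516, edgeR). Mttp, which loads lipid onto Apob, was at 0.03 (SE 0.13) in GCERAdT over TRACK.

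**Figure D4:**
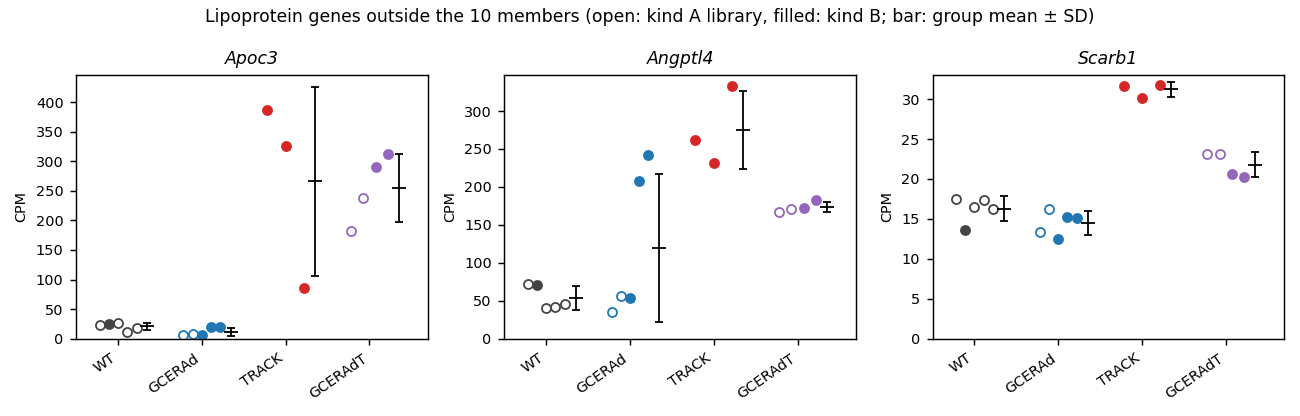
CPM of Apoc3, Angptl4 and Scarb1 in all 17 samples by group, open points for kind A and filled points for kind B libraries, with group mean ± SD as bars. Scarb1 and Angptl4 have their highest group mean in TRACK, at 31.2 and 275 CPM, and Apoc3 is at 5.70 to 26.4 CPM across the WT and GCERAd samples against 85.3 to 387 CPM across the TRACK and GCERAdT samples.

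Of 20 transcription factors linked to apolipoprotein genes, 0 rose by edgeR and 1 by DESeq2 (2 at an unadjusted p under 0.05, edgeR), and 3 fell by edgeR, in GCERAdT over TRACK. These were the bile acid receptor Nr1h4 (-0.58, adjusted p = 0.00769, edgeR), its partner Rxra (-0.46) and Foxo1 (-0.39). In the fit of all 17 samples the adjusted p of Nr1h4 was 0.175 (edgeR), and in kind B libraries alone it was 0.0835 for Nr1h4 (-0.49) and 0.0947 for Rxra (-0.48). The call of Rxra was also lost without TRACK 1 or GCERAdT 2. That of Foxo1 was lost with the kind term (adjusted p = 0.119, edgeR), in kind B libraries alone (adjusted p = 0.184, edgeR) and in 6 of the 7 fits without a sample, GCERAdT 4 being the exception. Nr1h4 was higher in TRACK than in WT by 1.51 (adjusted p = 1.28e-05, edgeR), and Hnf4a, a main regulator in liver and proximal tubule, was at -0.26 there. Of 25 other apolipoproteins, 3 reached the minimum level in GCERAdT over TRACK, and 0 were called by edgeR or DESeq2 (0 at an unadjusted p under 0.05, edgeR). Clu, a secreted chaperone also called apolipoprotein J, was at -0.12 (adjusted p = 0.465, edgeR). Apod, a lipocalin, was below the minimum at 3.10, 0.895 and 2.31 CPM in TRACK and 0.196 to 0.419 CPM in GCERAdT (-2.77, adjusted p = 1.64e-05, edgeR, fit of all genes). Endothelial markers, which are not of the tubule, also differed: their summed level was 809 to 918 CPM in TRACK and 591 to 689 CPM in GCERAdT, and 3 of 6 fell. Adipocyte markers summed to 62.8 to 173 CPM in TRACK, with TRACK 1 the highest, and 44.8 to 72.2 CPM in GCERAdT, where 1 of 5 fell. Their part in these values was not tested. Macrophage markers were at 105 to 183 CPM in sum over all groups, and 0 of 9 were called in GCERAdT over TRACK by edgeR or DESeq2 (1 at an unadjusted p under 0.05, edgeR).

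By root mean square difference of log2 CPM centred on each gene's mean over 17 samples, among 9130 genes with a mean of at least 10 CPM, the genes most like Apoe were Cyp2d26 (0.21), Wfdc2 (0.33), Flvcr2 (0.34), Gsto1 (0.37) and Slc39a5 (0.37). Cyp2d26 had a mean of 549 CPM in WT, 175 in GCERAd, 194 in TRACK and 193 in GCERAdT, close to the order of Apoe. Among those most like Apob were Mpp6 (0.18), Sash1 (0.22), Rnf213 (0.23) and Map3k2 (0.23), and Mpp6 had a mean of 59.6 CPM in WT and 107 to 118 CPM in the other 3 groups. The points share libraries and the WT samples, and these values are a description with no test.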

How the data were processed

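Kidney cortices were sequenced in 17 samples from stranded poly(A) libraries. Per the labels and the study's methods, the authors used bcl2fastq 2.20 for demultiplexing, Cutadapt for trimming, STAR for alignment to GRCm38 and HTSeq for counts per gene. The deposited table holds raw counts per gene with no normalization. The annotation release, strand setting and treatment of multiply mapped reads were not given in the sources used here.

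Counts were scaled by TMM and tested with edgeR 4.0.16 (quasi-likelihood, robust) in R 4.3.3, each comparison on its 2 groups alone and the difference of contrasts on all 17 samples. DESeq2 1.42.0 was an alternative. A gene was tested if its FPKM averaged 1 or more in either group, using merged exon lengths of GENCODE M21 (48435 genes had a length, 360 had none). Members below that level were taken from another fit, over every gene counted. Some members reached that level only through the group where they were higher. These were Apoh in both comparisons with WT and Apoa1 in both comparisons with GCERAd. The same held for Apoc1 in GCERAd over WT and in GCERAdT over TRACK. The SE of a log2 fold change is its size divided by the square root of the F statistic. Named genes were all 10 members, preset related genes and up to 3 called genes per list in each direction of GCERAdT over TRACK. Apoo-ps was named after its values were seen. The members and lists were chosen with earlier results of these data known. The procedure was tested on simulated data. Samples with the same number in their titles deviated together in GCERAdT and GCERAd (correlations 0.347 to 0.523 over 4 numbers) and not in the other comparisons (-0.539 to 0.028). Some genes that these rules name are not reported here.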

Additional observations from a re-analysis of the deposited data

Results flagged for a closer look

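Of 33 groups of 4 or 5 samples tested, 4 held a sample far from the others, and chance alone marks about 1 group in 20. Apoo was 26.3 CPM in WT 2 against 57.0 to 62.8 CPM in the other WT samples, and WT 2 is the only kind B library of that group. Apom was 119 CPM in WT 2 against 94.4 to 97.9 CPM in the other 4. Apoc1 was 0.394 CPM in WT 3, where the other WT samples had 1.76 to 2.31 CPM. Apoh was 3.52 CPM in GCERAdT 4 against 1.37 to 1.55 CPM in GCERAdT 1 to 3, and the same library had 1342 CPM on the hepatocyte list against 808 to 820 CPM. The most abundant gene of that list was Cyp2e1, which kidney also makes, at 357 to 797 CPM in GCERAdT, while Alb was at 5.10 to 8.62 CPM and Ttr at 59.2 to 93.8 CPM. The part of the list in this Apoh value was not tested.

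The effect of the ATF4 KO label differed between the settings with and without TRACK for 2 of the 10 members, beside 24.9% of all genes tested. The log2 difference was -5.51 for Apoh (adjusted p = 3.20e-04, edgeR) and 1.59 for Apoe (adjusted p = 9.83e-04, edgeR). In both, GCERAd and WT were apart in every sample, and GCERAdT and TRACK overlapped. The WT libraries differ from all others in their sex-linked counts, so this difference cannot be told apart from sex.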

How the results depend on the processing

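The number of members called in GCERAdT over TRACK was 3 (7.61% of all genes tested), and 5 with DESeq2 (13.1%), 1 with the replicate block (7.49%), 0 with the library kind term (4.17%) and 0 in kind B libraries alone (2.4%, with 5 members at an unadjusted p under 0.05 in each of these last fits, edgeR), and 1 to 4 without 1 sample. In GCERAd over WT it was 8 (27.5%), and 5 with no minimum level (11.6%), 4 with the replicate block (18.4%), 0 in kind B libraries alone (0.859%, with 6 members at an unadjusted p under 0.05, edgeR) and 4 with WT 1 and 2 and GCERAd 2 and 3 summed as possible repeat libraries (23.7%), and 4 to 8 without 1 sample. In TRACK over WT it was 8 (45.5%), and 4 with the replicate block (29.1%), 5 with the kind term (23.0%), 3 in kind B libraries alone (13.5%), and 6 to 8 without 1 sample. In GCERAdT over GCERAd it was 3 (19.1%), and 7 with the replicate block (32.1%), 6 with the kind term (25.8%), 1 in kind B libraries alone (3.09%), and 2 to 3 without 1 sample. For the difference of contrasts it was 2 (24.9%), and 4 with the kind term (21.7%), 1 in kind B libraries alone (3.71%), and 2 to 3 without 1 sample. The share of all genes called moved with most of these counts, so they are no result about the members. Kind B libraries are fewer samples, with WT 2 the lone WT sample, assumed to vary like the others; the cause of the other shifts was not tested. The kind B fits, the summing and the kind coefficient were chosen after seeing the data. The labels pair no samples in any comparison, and the block rests on the number in the titles. In GCERAdT over GCERAd samples of the same number also share the library kind, so the block takes up kind there.

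Of 940 refits of 50 log2 fold changes, 36 turned the sign, all of values that were not called and with adjusted p of at least 0.223. In GCERAdT over TRACK Apool was -0.0027 with DESeq2 and with RLE scaling, -0.0133 with no minimum level, -0.0004 with the FPKM minimum over all samples, -0.0062 in the 17-sample fit, -0.0263 with the replicate block and -0.0904 to 0.0572 without 1 sample; Apoe was -0.2871 to 0.2257 and Apoa4 -0.3152 to 0.5825 without 1 sample. In GCERAd over WT Apoo was 0.0405 with the kind term and Apom -0.0887 to 0.0187 without 1 sample. In TRACK over WT Apoc1 was 0.0664 with the block, and Apool -0.0985 with the kind term and -0.0981 in kind B libraries. In GCERAdT over GCERAd Apoe was -0.0177 with no minimum level, -0.1723 in kind B libraries, -0.0333 with repeats summed and -0.0887 to 0.1354 without 1 sample. For the difference of contrasts, Apoa1 was -0.4293 in kind B libraries, Apoa2 0.0048 and Apoo -0.0174 with the kind term, and Apoc1 0.1181 with the block, 0.3999 in kind B libraries, 0.0982 with repeats summed and -0.3614 to 0.3569 without 1 sample.

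The planned term for sex-linked genes could not be fitted: the WT samples differ from all others in it, so it cannot be told apart from the comparisons with WT, and it does not vary in the rest.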
